A study of Mus musculus with 28 samples.

Results

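Foxo1, Klf2, S1pr1, Ccr7, Il7r, Tcf7, Lef1 and Satb1 are 8 genes of resting (naive) T cells, and they are described here in spleen T cells of mice given rapamycin in 3 formulations, an empty carrier or nothing. They were chosen by name, and each matched 1 of the 55413 gene identifiers in the deposited counts. All 8 were among the 17132 genes that passed the low-count filter. Levels are given in CPM, a count scaled to the total of its library, and as a ratio to the same library's count of Cd3e, which encodes the CD3 epsilon chain that every T cell carries with its receptor.

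FOXO1 is a transcription factor that PI3K and AKT signalling keeps out of the nucleus, and mTOR complex 2 takes part in activating AKT. In resting T cells FOXO1 sits in the nucleus and drives genes that keep the cells naive and circulating. They include Klf2, a transcription factor that in turn drives S1pr1, the receptor by which T cells leave lymphoid organs along sphingosine-1-phosphate. They also include Ccr7, the chemokine receptor for entry into lymph nodes, and Il7r, the receptor chain for the survival cytokine interleukin-7. Tcf7 and Lef1 encode the related factors TCF1 and LEF1, and Satb1 encodes a chromatin organiser; these 3 are high in naive T cells and fall as T cells become effectors. Rapamycin blocks mTOR complex 1, and prolonged exposure can also reduce mTOR complex 2.

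The 28 libraries were bulk RNA sequencing of CD3+ cells taken from spleen with magnetic beads, from male C57BL/6J mice aged 8 to 12 weeks. The untreated group (NT) had 7 libraries. The PS group (4 libraries) received empty polymersomes, which are hollow vesicles of the polymer PEG-b-PPS, at 60 mg polymer per kg under the skin. The R group (6 libraries) received 1 mg/kg rapamycin in 0.2% CMC under the skin, the RO group (6 libraries) received 1 mg/kg of the oral formulation Rapamune, and the rPS group (5 libraries) received polymersomes loaded with rapamycin under the skin, at both of those doses. Treated mice had 1 dose on each of 11 days, for 11 doses. No group received CMC alone, so NT differs from R in the vehicle and the injections as well as the drug.

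Total counts ran from 4286885 to 15696528 per library. In RO replicate 7 the counts stop partway along chromosome 12, and genes on every later chromosome, Il7r and Satb1 among them, are listed at 0, so it was left out of every fit and group summary and 27 libraries remained. There were 6 libraries (NT 3, 4, 7 and 8, R 3 and RO 3, by replicate number) in which Cd3e lay between 9.58 and 46.9 CPM and Lyz2, a macrophage enzyme, between 1870 and 3720 CPM. In the other 21 libraries Cd3e lay between 76.0 and 471 CPM and Lyz2 between 18.9 and 693 CPM. The 6 libraries are called T-cell-poor below. All 15 T cell markers were detected in both sets, and their sum was 212 to 686 CPM in the T-cell-poor libraries and 1140 to 4590 CPM in the others. The sum of 12 monocyte and macrophage markers was 6280 to 11100 against 228 to 2760 CPM, that of 10 neutrophil markers 392 to 3250 against 5.31 to 253 CPM, and that of 12 B cell markers 3790 to 16500 against 1230 to 10500 CPM. The CD3+ label thus held only in part, above all in the untreated group, where 4 of 7 libraries were T-cell-poor. None of the PS or rPS libraries were T-cell-poor. Results are therefore given with and without these 6 libraries. A further difference sets NT apart: Malat1, a nuclear RNA, and mt-Rnr2, a mitochondrial ribosomal RNA, are listed at 0 in all 7 NT libraries, while the 20 treated libraries hold 15700 to 27800 CPM of Malat1 and 1850 to 21800 CPM of mt-Rnr2. Genes that every cell uses are thus missing from NT alone. Whether the NT counts were made in another way was not tested, and in comparisons with NT such a difference cannot be told apart from treatment.

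All 8 genes had a lower median CPM in the T-cell-poor libraries, but by very unequal amounts. The median of the 21 other libraries stood above that of the 6 T-cell-poor ones by 13.4 times for Lef1, 7.44 for Tcf7, 6.76 for Il7r, 4.45 for Ccr7, 4.03 for Satb1, 2.80 for S1pr1, 2.51 for Foxo1 and 1.88 for Klf2. For Cd3e itself the figure was 8.25. The ratio was thus larger for Lef1 than for Cd3e, near that of Cd3e for Tcf7, and far smaller for Klf2 and Foxo1. In bulk samples fewer cells of a type and less RNA per cell cannot be told apart.

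**Figure D1:**
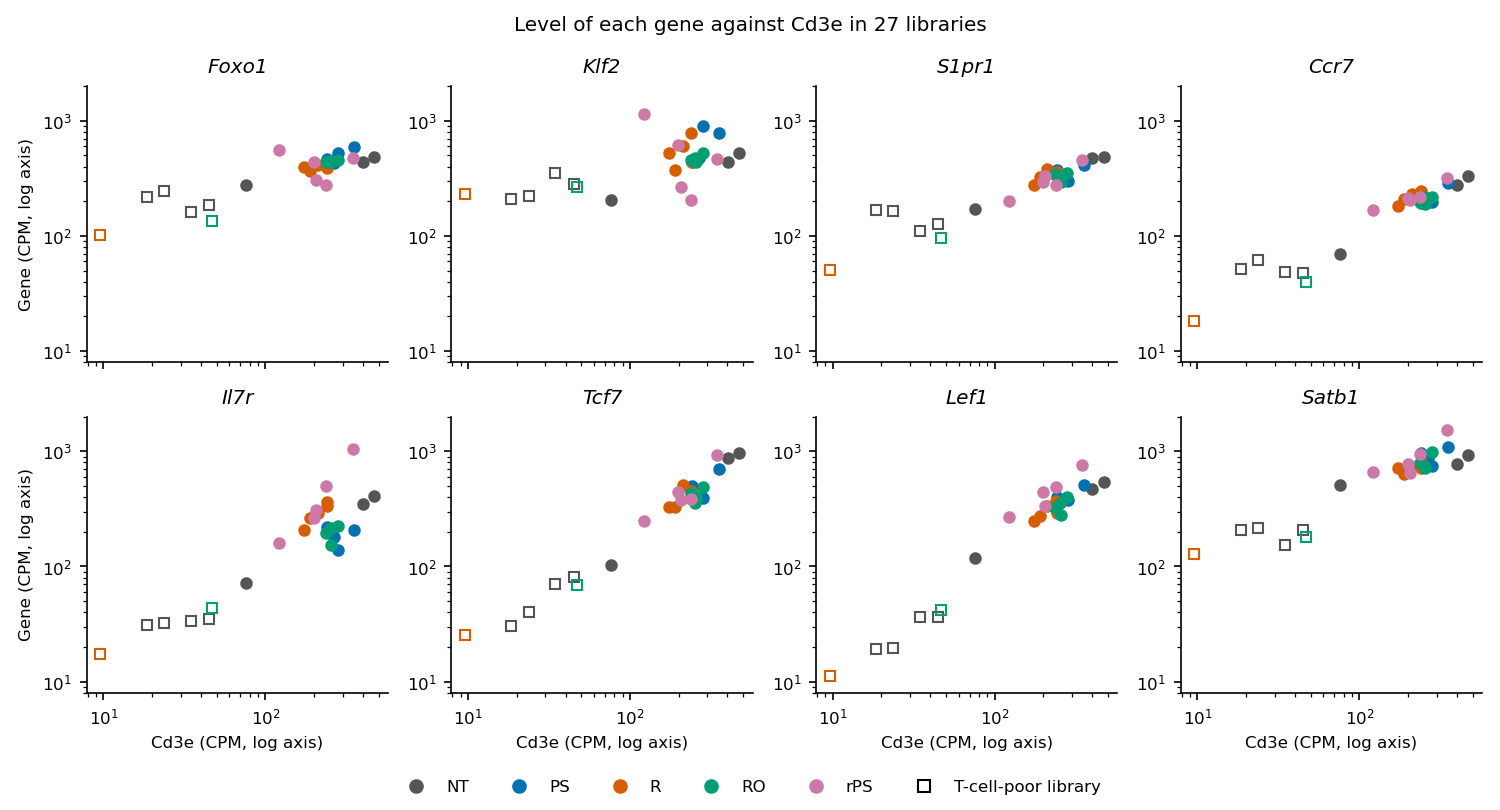
Level of each of the 8 genes (CPM, log axis) against Cd3e (CPM, log axis) in 27 libraries, 1 point per library coloured by group, with open squares for the 6 T-cell-poor libraries. Tcf7 and Lef1 follow Cd3e over its whole range, Klf2 scatters widely, and Il7r lies highest in rPS replicate 5 at 1040 CPM.

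Foxo1 itself ran from 278 to 594 CPM in the 21 libraries that were not T-cell-poor. Its level was 434 CPM in NT replicate 2, 278 CPM in replicate 5 and 486 CPM in replicate 6. The 4 PS libraries held 431, 468, 594 and 524 CPM. The 5 R libraries lay between 364 and 418 CPM and the 4 RO libraries between 439 and 455 CPM. The 5 rPS libraries were wider apart, with 279, 305, 555, 472 and 434 CPM in replicates 1, 2, 4, 5 and 7. All treated groups overlapped NT. Relative to Cd3e, Foxo1 reached 4.55 in rPS replicate 4 and 3.66 in NT replicate 5, against 1.03 to 2.29 in the remaining 19 of these libraries. In the T-cell-poor libraries the ratio was 2.89 to 11.67.

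Klf2 differed least of the 8 genes between the T-cell-poor libraries and the others. It ran from 210 to 355 CPM in the T-cell-poor libraries and from 204 to 1140 CPM in the others. Of these 21 others, 3 (NT replicate 5 and rPS replicates 1 and 2) lay at 204 to 268 CPM and 18 lay above the T-cell-poor range, from 375 CPM upwards. Within rPS it was 205, 268, 1140, 461 and 613 CPM, and rPS replicate 4 had the highest level of all 27 libraries. Relative to Cd3e that library stood at 9.33, while the other 4 rPS libraries lay between 0.86 and 3.08. The same library had the group's lowest Cd3e, 122 CPM, its highest B cell marker sum, 8460 CPM, and its highest red cell marker sum, 4650 CPM. Their part in the Klf2 value was not tested. Klf2 is made by B cells and endothelium as well as T cells.

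S1pr1, which Klf2 drives in T cells, did not follow Klf2 from library to library. In rPS replicate 4, where Klf2 was highest, S1pr1 was lowest of the group at 199 CPM, and in rPS replicate 5 it was highest at 459 CPM. Over the 21 libraries Pearson's r between the log2 CPM of S1pr1 and Klf2 was 0.21, while r was 0.95 for S1pr1 with Tcf7 and 0.91 with Cd3e. Foxo1 and Klf2 had r = 0.88 over the same libraries. These are descriptions over 21 libraries that share cell make-up, and carry no test. Relative to Cd3e, S1pr1 lay between 1.02 and 2.27 in the 21 libraries, with medians of 1.19 in NT, 1.2 in PS, 1.6 in R, 1.25 in RO and 1.48 in rPS, and the groups overlapped.

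Ccr7 relative to Cd3e was nearly level in PS and RO and somewhat higher in R and rPS, by about as much as the median of all genes. The ratio was 0.75, 0.81, 0.82 and 0.70 in the 4 PS libraries and 0.76, 0.85, 0.85, 0.77 and 0.83 in the 5 RO libraries, the T-cell-poor one included. It was 1.09, 1.91, 1.09, 0.89, 1.05 and 1.03 in the 6 R libraries, where 1.91 belongs to the T-cell-poor replicate 3. It was 0.91, 0.99, 1.37, 0.91 and 1.08 in the 5 rPS libraries. Every R and rPS library thus stood above every PS and RO library, by a narrow margin of 0.89 against 0.85. Of all genes, 1.8% had no overlap in rPS against PS and 0.397% in rPS against RO. The share was 13.6% in R against PS and 0.222% in R against RO. RO replicate 7, left out elsewhere, had 0.85. NT ran from 0.69 to 2.80 and overlapped all groups, and its 3 libraries that were not T-cell-poor had 0.69, 0.92 and 0.70. In CPM the groups overlapped. With the T-cell-poor libraries left out, the log2 difference relative to Cd3e was 0.42 ± 0.31 (SE) for R against PS and 0.45 ± 0.31 for rPS against PS, and neither passed the test across all genes (edgeR adjusted p = 0.844 and 0.73). The median of all genes was 0.37 and 0.44 in these comparisons, so most or all of the Ccr7 difference was shared by the typical gene.

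Il7r set the groups apart more than any other of the 8 genes: relative to Cd3e it was higher in both groups given rapamycin under the skin than in PS and RO. The 250 bases before its annotated start are shown for that reason, with those of Tcf7 and Lef1, the promoters in which a searched motif was found. The sequences are from RefSeq, build GRCm38.p6, in lower case, 5′ to 3′ on the gene's strand. Capitals mark a match to CCACACC, the core bound by Krüppel-like factors such as KLF2, or to its reverse complement.
Il7r, chr15:9529877-9530126, minus strand: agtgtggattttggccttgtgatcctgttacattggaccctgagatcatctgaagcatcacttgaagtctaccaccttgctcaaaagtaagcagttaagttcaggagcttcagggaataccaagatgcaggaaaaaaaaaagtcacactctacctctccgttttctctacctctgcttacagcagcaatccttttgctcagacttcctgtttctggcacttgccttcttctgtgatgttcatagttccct
Tcf7, chr11:52282596-52282845, minus strand: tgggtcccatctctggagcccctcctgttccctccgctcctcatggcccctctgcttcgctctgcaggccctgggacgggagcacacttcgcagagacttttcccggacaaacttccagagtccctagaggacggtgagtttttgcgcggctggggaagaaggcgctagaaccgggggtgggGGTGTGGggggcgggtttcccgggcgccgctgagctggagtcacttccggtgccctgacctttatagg
Lef1, chr3:131112541-131112790, plus strand: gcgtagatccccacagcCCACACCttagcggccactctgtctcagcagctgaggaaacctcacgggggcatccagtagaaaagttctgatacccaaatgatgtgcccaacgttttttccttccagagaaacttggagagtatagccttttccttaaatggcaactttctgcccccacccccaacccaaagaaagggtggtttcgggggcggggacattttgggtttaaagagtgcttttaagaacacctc

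Motifs for 3 families of factors were searched on both strands in the 250 bases before each of 32851 promoters. GTAAACA, the core bound by FOXO factors, was in 3.17% of all promoters and in 0 of the 14 promoters matched for 6 of the 8 genes, Foxo1, Klf2, Il7r, Tcf7, Lef1 and Satb1. CTTTGAT, bound by TCF1 and LEF1, was in 3.21% and in 0 of the 14. CCACACC was in 6.52% and in 2 of the 14, the Tcf7 and Lef1 stretches shown. The Tcf7 match, on the opposite strand, starts 68 bases before the start site and the Lef1 match 233 bases before it. A match describes letters in this window and is not a measured site. Promoters of S1pr1 and Ccr7 were not used here.

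The Il7r ratio to Cd3e was 0.68, 0.92, 0.59 and 0.49 in the 4 PS libraries. It was 0.61, 0.92, 0.85, 0.79 and 0.82 in the 5 RO libraries, where the highest value belongs to the T-cell-poor replicate 3. The 6 R libraries had 1.37, 1.82, 1.4, 1.38, 1.18 and 1.52, with 1.82 in the T-cell-poor replicate 3. The 5 rPS libraries had 2.12, 1.5, 1.31, 3 and 1.33. Every library of R and rPS was above every library of PS and RO. Of all genes, 1.8% had no overlap in rPS against PS and 0.397% in rPS against RO. The share was 0.222% in R against RO and 13.6% in R against PS, where 2319 of 2330 such genes were higher in R. NT had 0.86, 0.94 and 0.87 in the 3 libraries that were not T-cell-poor, below all of R and rPS, and 1.67, 0.98, 1.36 and 0.79 in the T-cell-poor ones, which spread over both levels. By median the order was PS at 0.63, RO at 0.82, NT at 0.94, R at 1.39 and rPS at 1.5. The means were 0.67 ± 0.19 (SD, n = 4) in PS, 0.8 ± 0.12 (n = 5) in RO, 1.07 ± 0.32 (n = 7) in NT, 1.45 ± 0.21 (n = 6) in R and 1.85 ± 0.72 (n = 5) in rPS. PS and RO overlapped, as did R and rPS.

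**Figure D2:**
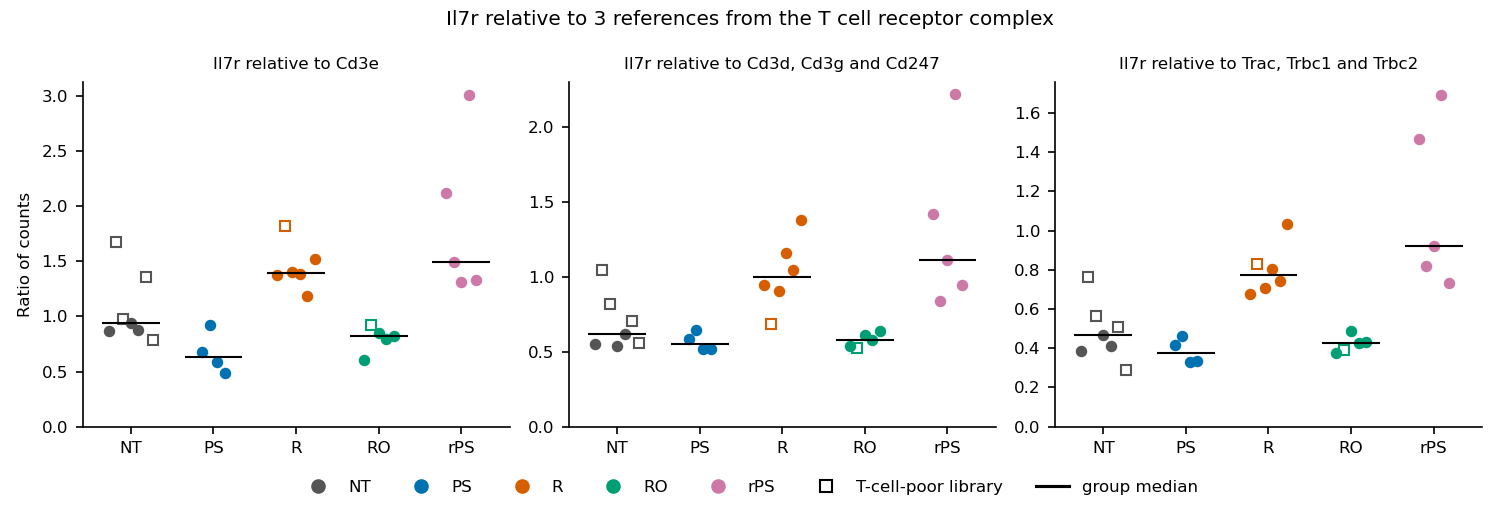
Il7r counts divided by those of 3 references from the T cell receptor complex (vertical axis, ratio from 0), by group, with 1 point per library, open squares for T-cell-poor libraries and a bar at the group median. Under all 3 references each R and rPS library lies above each PS and RO library.

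The same separation of Il7r held with other T cell genes as the reference. Relative to the summed counts of Cd3d, Cd3g and Cd247, and relative to the summed constant regions Trac, Trbc1 and Trbc2, Il7r was higher in every library of R and of rPS than in any of PS or RO. With Cd3d, Cd3g and Cd247 the margin was narrow, 0.682 in R replicate 3, a T-cell-poor library, against 0.647 in PS replicate 3. With that reference the share of all genes without overlap was 1.09% in rPS against PS and 0.368% in rPS against RO. It was 6.88% in R against PS and 0.269% in R against RO. With Trac, Trbc1 and Trbc2 these 4 shares were 1.98%, 0.455%, 11.1% and 0.304%. Ccr7 was less steady: with Cd3d, Cd3g and Cd247 it stayed apart only in R against RO. With that reference Satb1 was lower without overlap in RO against PS (0.549% of all genes). With Trac, Trbc1 and Trbc2, S1pr1 was higher without overlap in R against PS and Tcf7 in rPS against RO. These references were chosen after the data were seen.

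In CPM, without the scaling to Cd3e, the Il7r levels overlapped. The 3 NT libraries that were not T-cell-poor held 346, 71.5 and 412 CPM. PS held 138 to 222 CPM, and the libraries of R and RO that were not T-cell-poor held 206 to 365 and 154 to 223 CPM. In rPS the values were 503, 308, 160, 1040 and 265 CPM. The highest, replicate 5, was also the library with the least sign of other cells: its marker sums were 1230 CPM for B cells, 228 CPM for monocytes and macrophages and 142 CPM for red cells, each the lowest of the 21. In the same 21 libraries the T cell marker sum was lower in R (1760 to 2330 CPM) than in PS (2510 to 3480 CPM) and RO (2520 to 3130 CPM), while rPS spanned 1380 to 3640 CPM. The red cell marker sum was 2900 to 10400 CPM in R against 870 to 2490 CPM in PS. The part of these in the Il7r ratio was not tested.

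In the model across all genes the Il7r differences were large but did not pass the threshold of 0.05 after Benjamini-Hochberg adjustment. With the T-cell-poor libraries left out, the log2 difference relative to Cd3e was 1.47 ± 0.35 (SE) for rPS against PS (edgeR quasi-likelihood, unadjusted p = 0.000247, adjusted p = 0.346). It was 1.27 ± 0.35 for rPS against RO (edgeR unadjusted p = 0.00106, adjusted p = 0.785), 1.04 ± 0.35 for R against PS (0.00553 and 0.769) and 0.84 ± 0.34 for R against RO (0.0212 and 0.991). Between rPS and R the difference was 0.43 ± 0.32. With all 27 libraries the 4 differences were 1.47 ± 0.76, 1.21 ± 0.70, 1.11 ± 0.73 and 0.86 ± 0.68. The median of all genes in these 4 was 0.44, 0.32, 0.37 and 0.26 without the T-cell-poor libraries. With all 27 it was 0.44, -0.49, 2.25 and 1.35. In that fit Il7r thus rose less than the typical gene in R against PS and in R against RO. A second model that gives unusual libraries less weight, limma voom with quality weights, called Il7r higher in all 4: 1.25 ± 0.19 for rPS against PS, 1.14 ± 0.18 for rPS against RO, 0.94 ± 0.15 for R against RO and 1.05 ± 0.15 for R against PS (adjusted p = 3.89e-05, 0.000382, 0.000243 and 8.62e-06). That model called 6.35% of genes in rPS against PS, 0.397% in rPS against RO, 2.15% in R against RO and 16% in R against PS, where the median of all genes was 0.28, 0.19, 0.16 and 0.25. Ccr7 was the other member it called among these, in R against PS (0.44 ± 0.13, adjusted p = 0.0211). Whether Il7r is called thus depends on the model: edgeR 0 of these 4, voom 4 of 4.

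Tcf7 had the highest r with Cd3e of the 8 genes over the 21 libraries, 0.94. Its ratio to Cd3e was 1.35 to 2.67 in the 21 libraries and 1.47 to 2.63 in the T-cell-poor ones. The 3 NT libraries that were not T-cell-poor held 2.16, 1.35 and 2.05, the PS libraries 1.47, 2.07, 1.96 and 1.38, and the rPS libraries 1.61, 1.83, 2.02, 2.67 and 2.24. The 5 groups overlapped. Cd247 and Cd3e were 2 of the 3 genes whose levels resembled Tcf7 most.

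Lef1, in contrast, stood higher relative to Cd3e in rPS than in NT, R and RO. The rPS ratios were 2.04, 1.61, 2.21, 2.19 and 2.21. NT reached at most 1.56, R 1.6 and RO 1.44, while PS ran from 1.33 to 1.66 and overlapped rPS through rPS replicate 2. The margin over R, 1.61 against 1.6, was set by that same library. Of all genes, 0.642%, 0.695% and 0.397% had no overlap in rPS against NT, R and RO. With the T-cell-poor libraries left out the log2 difference relative to Cd3e was 0.67 ± 0.34 (SE) for rPS against NT, 0.50 ± 0.29 for rPS against R and 0.63 ± 0.31 for rPS against RO. None passed the threshold (edgeR adjusted p = 0.735, 1 and 0.941). Relative to Cd3d, Cd3g and Cd247, Lef1 in rPS overlapped R and RO but not NT, and relative to Trac, Trbc1 and Trbc2 it overlapped R but neither RO nor NT. With both of these references PS also stood above NT. In the same order 0.613% and 0.339% of all genes had no overlap in rPS against NT, and 0.823% and 0.852% in PS against NT. With Trac, Trbc1 and Trbc2 the share was 0.455% in rPS against RO.

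Satb1 ranged from 506 to 1520 CPM in the 21 libraries, with the highest level again in rPS replicate 5. Its ratio to Cd3e was 1.95, 6.67 and 1.96 in the 3 NT libraries, 2.62 to 4 in the PS group, 2.95 to 4.09 in 5 R libraries, 2.78 to 3.5 in 4 RO libraries and 3.16 to 5.37 in the rPS group. In the T-cell-poor libraries it was 3.88 to 13.45. The groups overlapped NT throughout, because NT replicate 5, which lay between the sets with Cd3e at 76.0 CPM and Lyz2 at 693 CPM, had a ratio above that of every other library in the set of 21.

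**Figure D3:**
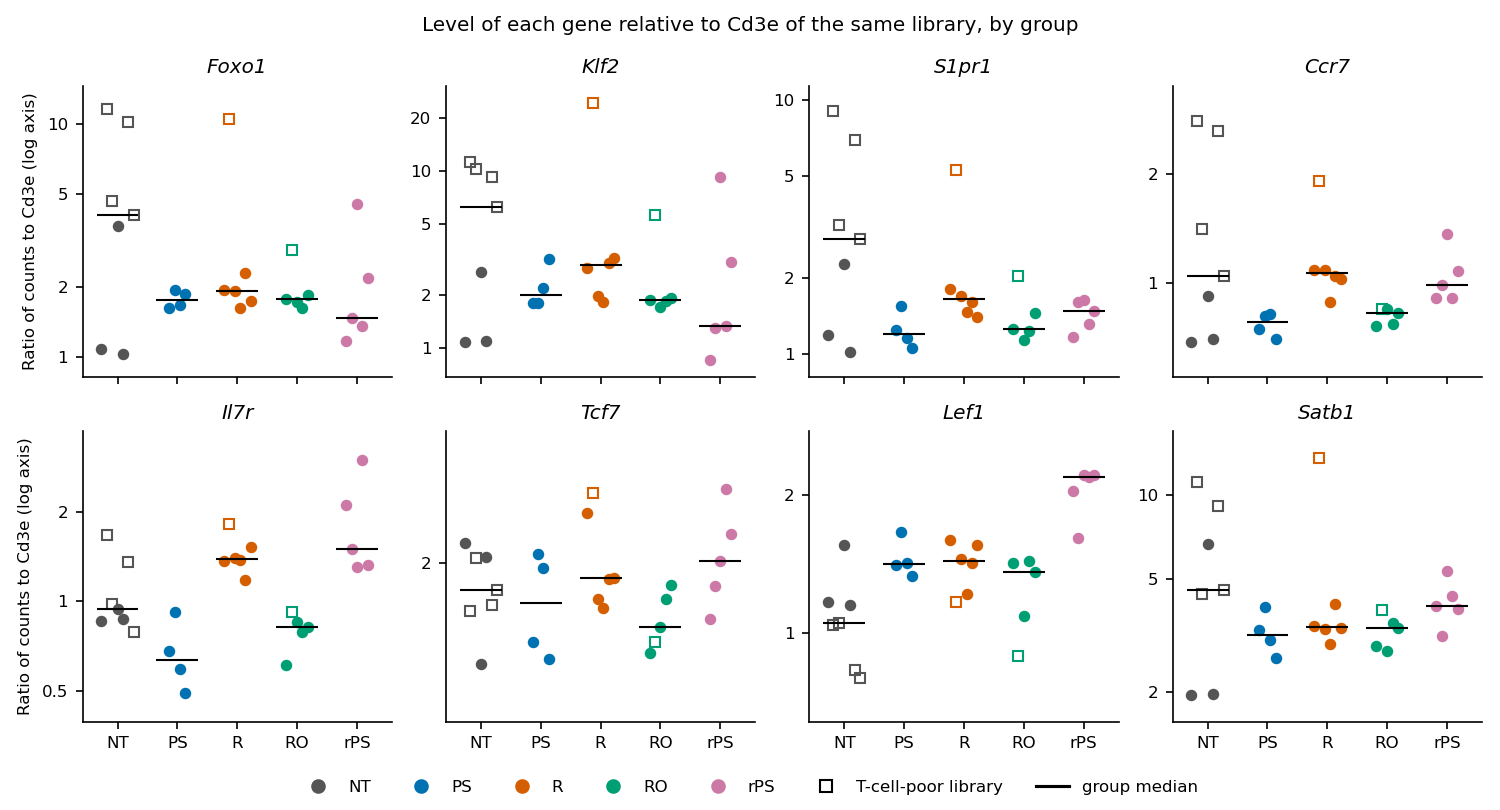
Count of each gene divided by that of Cd3e in the same library (log axis), by group, with 1 point per library, open squares for T-cell-poor libraries and a bar at the group median. Il7r and Ccr7 are higher in R and rPS than in PS and RO, and Lef1 is highest in rPS, while Foxo1, Klf2, S1pr1 and Satb1 are highest in T-cell-poor libraries.

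Comparing each treated group with NT, no member of the set passed the test in any of the 4 comparisons. Scaled to library size, all 8 genes had a positive log2 fold change against NT in every treated group, with a median of 0.70 in PS, 0.49 in R, 0.35 in RO and 0.73 in rPS. The largest were Il7r in rPS, 1.68 ± 0.67 (SE, edgeR unadjusted p = 0.0182, adjusted p = 0.0693), Lef1 in rPS, 1.32 ± 0.73 (adjusted p = 0.183), Satb1 in rPS, 1.06 ± 0.43 (adjusted p = 0.0727) and Lef1 in PS, 1.12 ± 0.77 (adjusted p = 0.314). The share of all genes called was 4.97% in PS, 0.665% in R, 0.0117% in RO and 21.5% in rPS, and 3, 0, 0 and 2 of the 8 genes had an unadjusted p under 0.05. The 2 genes called in RO were Malat1 and mt-Rnr2, listed at 0 in NT. Over all genes the median was between -0.02 and 0. With the T-cell-poor libraries left out the medians of the 8 became -0.06, -0.08, -0.23 and 0.13, and again 0 passed. Tcf7 then stood at -0.50 in rPS and Il7r at 0.67 ± 0.50. The sign against NT thus turned on the 6 T-cell-poor libraries for part of the 8 genes. The call also depended on the model. With all 27 libraries limma voom with quality weights called 8, 8, 8 and 7 of the 8 genes higher in PS, R, RO and rPS. It called 54.8%, 41.3%, 47.2% and 35.5% of all genes in either direction. That model weighs down libraries unusual for their group, and in NT the T-cell-poor libraries were 4 of 7. Lef1 lay at 19.3 to 36.4 CPM in these and at 118 to 540 CPM in the other NT libraries. Which of them set the voom values was not tested. The fold changes themselves differed between the models: voom gave 3.59 ± 0.43 for Lef1 in PS, 2.64 ± 0.41 for Tcf7 in R and 3.02 ± 0.47 for Il7r in rPS, where edgeR gave 1.12, 0.10 and 1.68.

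**Figure D4:**
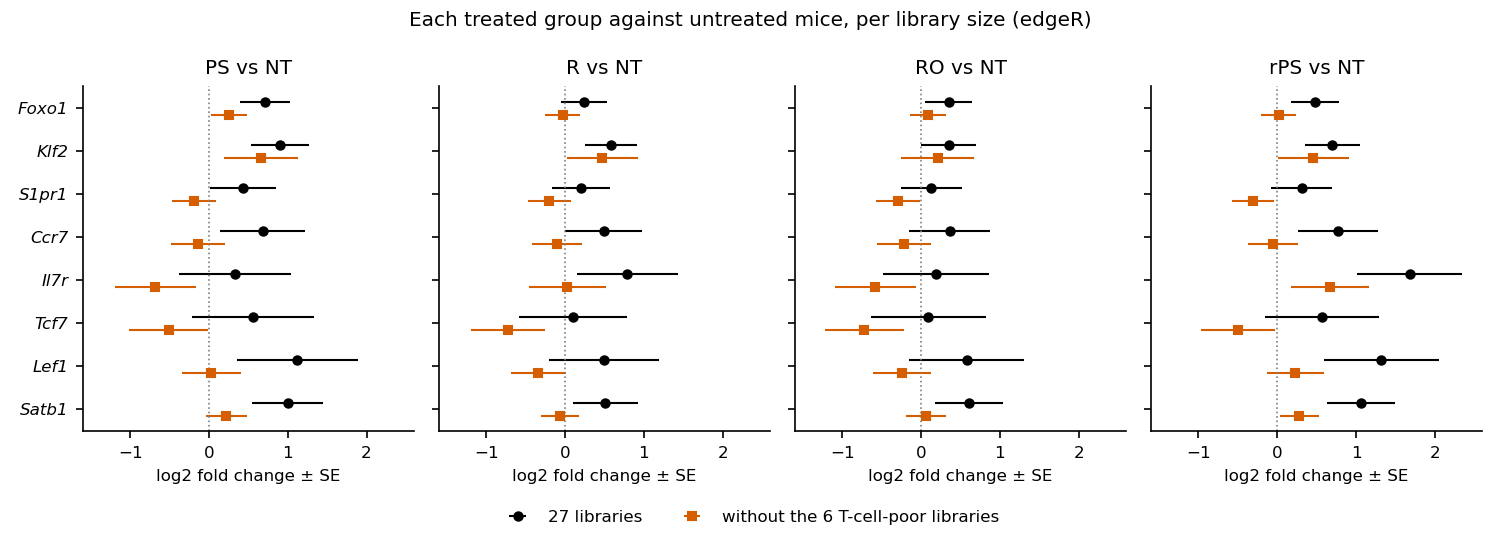
Log2 fold change ± SE (horizontal axis) of each gene in the 4 treated groups against NT, scaled to library size, with black circles for all 27 libraries and orange squares without the 6 T-cell-poor libraries. Every black circle lies above 0, while the orange squares lie on both sides of it.

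Relative to Cd3e, which was low in the 4 T-cell-poor NT libraries, the median of all genes against NT was -2.56 in PS, -0.28 in R, -1.64 in RO and -2.14 in rPS on the log2 scale. The model called 75.3% of genes in PS, 0.0117% in R, 0.0117% in RO and 46.5% in rPS, and 0 of the 8 in each. Those called in PS and rPS were nearly all lower, and the 2 called in R and in RO were again Malat1 and mt-Rnr2. None of the 8 genes had an unadjusted p under 0.05 in these 4. The 8 genes had medians of -0.87, -0.06, -0.82 and -0.46, above the median of all genes in each comparison. Lef1 had a positive value in all 4 comparisons, up to 0.92 ± 0.63 in rPS. In the voom fit, which called 92.6%, 92.5%, 93% and 91.4% of all genes, nearly all of them lower, Lef1 was called higher in all 4 groups and Il7r in R and rPS, while Foxo1, Klf2 and S1pr1 were called lower in all 4. With the T-cell-poor libraries left out the 8 genes had medians of -0.11, 0.13, -0.16 and 0.35, while all genes had -0.72, -0.34, -0.60 and -0.28. Groups with no overlap in the ratio to Cd3e were found for 0 of 8 genes in PS, R and RO, where 1.94%, 0.0584% and 0.0876% of all genes had none, and for 1 of 8, Lef1, in rPS, where 0.642% had none.

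Among treated groups 0 of the 8 genes passed the test in any of the 6 comparisons, and few genes of any kind did. Scaled to library size the share called was 0.0817% in rPS against PS, 0.0117% in rPS against R, 0.0175% in rPS against RO, 0% in R against RO, 0.0117% in R against PS and 0% in RO against PS. Relative to Cd3e it was 0% in all 6, although 87 to 10507 genes had an unadjusted p under 0.05. Of the 8 genes, none had an unadjusted p under 0.05 in any of these 6 with all 27 libraries on either scale. Some of the 8 genes had ratios to Cd3e without overlap. In rPS against PS they numbered 2, Ccr7 and Il7r, where 1.8% of all genes had none in common. In rPS against R it was 1, Lef1 (0.695% of all genes), and in rPS against RO 3, Ccr7, Il7r and Lef1 (0.397%). In R against RO (0.222%) and in R against PS (13.6%) they were Ccr7 and Il7r, and in RO against PS (1.61%) none. All of these were higher in the group named first. In R against PS most genes without overlap moved the same way, 2319 of 2330, so the count there adds little about the 8. In R against RO 34 genes were higher without overlap, and in rPS against RO 34.

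For each gene the 3 tested genes with the most similar log2 CPM over the 27 libraries were found. Il7r resembled Usp28, Inpp4b and Itga6, an integrin chain, with r of 0.988, 0.984 and 0.971, and r of 0.964, 0.949 and 0.894 over the 21 libraries. Among those of Lef1 were Bcl11b, a T cell lineage factor, and Vipr1 (r = 0.991 and 0.989). Tcf7 resembled Cd247, Cd3e and Prkcq (0.989, 0.983 and 0.981), and Ccr7 resembled Ets1, Fntb and Ehd3 (0.980, 0.979 and 0.977). S1pr1 resembled Gimap6, Rasgrp1 and Ccr7, and Satb1 resembled Scml4, Grap2 and Plcg1. Foxo1 and Klf2 had other partners, Pitpnm2, Prkd2 and Nle1 for Foxo1 and Otud1, Med26 and Wiz for Klf2 (r from 0.921 to 0.975 over 27 libraries). Il7r and Klf2 were the least alike of the 8, with r of 0.43 over 27 libraries and 0.01 over 21. The points share cell make-up and the values carry no test.

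Genes of 5 related lists were read beside the 8: regulators of FOXO factors, further FOXO targets, naive T cell genes, trafficking genes, and effector and memory genes. Their median log2 changes in rPS against NT were 0.07, 0.21, 0.76, -0.28 and -0.83 in that order, where all genes had -0.01. Without the T-cell-poor libraries they were 0.09, 0.15, 0.16, -0.33 and -0.77, where all genes had 0. Of the genes that regulate FOXO factors, 2 of 17 tested were called higher and 2 lower in rPS against NT (scaled to library size), a share near the 21.5% of all genes called. Pik3cd, the PI3K catalytic subunit of leukocytes, rose by 0.62 ± 0.13 (edgeR adjusted p = 0.00263) and Foxo4 by 0.63 ± 0.16 (adjusted p = 0.00856). Without the T-cell-poor libraries Pik3cd was still called (0.59 ± 0.15, adjusted p = 0.0351) and Foxo4, at 0.54 ± 0.19, was not (adjusted p = 0.111). None of this list was called in PS, R or RO.

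Of 18 further FOXO targets, 2 were called higher in rPS against NT and 0 lower, where 21.5% of all genes were called. They were Sesn1, a stress-induced regulator of mTOR complex 1 (0.57 ± 0.18), and Pik3ip1, an inhibitor of PI3K (1.36 ± 0.46). Btg1, which holds T cells quiescent, was the only 1 called in PS against NT (0.66 ± 0.19, edgeR adjusted p = 0.0478). Without the T-cell-poor libraries Sesn1 stood at 0.29 ± 0.13, Pik3ip1 at 0.58 ± 0.30 and Btg1 at 0.54 ± 0.23, and none was called (edgeR adjusted p = 0.212, 0.259 and 0.3).

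Among 20 other genes of naive T cells, 4 were called higher and 0 lower in rPS against NT, and 1 in R against NT, beside 21.5% and 0.665% of all genes. The rPS count is thus near the share of all genes. Bcl2, which blocks apoptosis and is induced by interleukin-7 signalling, was 834 ± 271 CPM (SD, n = 5) in rPS and 260 ± 105 CPM (n = 7) in NT, a log2 change of 1.65 ± 0.27 (edgeR adjusted p = 0.000474). It was 558 ± 193 CPM (n = 6) in R, a change of 1.08 ± 0.26 (adjusted p = 0.0437). Without the T-cell-poor libraries the rPS change was 1.18 ± 0.19 (adjusted p = 0.00303) and that of R 0.79 ± 0.19 (adjusted p = 0.115). In that fit Bcl2 also rose in R against PS by 0.81 ± 0.17, in rPS against PS by 1.19 ± 0.17 and in rPS against RO by 0.95 ± 0.17 (edgeR adjusted p = 0.0478, 0.00317 and 0.044). Those are 3 of the 4 pairs of treated groups in which the Il7r ratios did not overlap. R against RO, the other, was not called for Bcl2. In R and rPS against NT, where Bcl2 was called with all 27 libraries, the Il7r ratios overlapped. Without the T-cell-poor libraries the Il7r ratios did not overlap in R or rPS against NT. There Bcl2 was called in rPS against NT and not in R against NT. The Bcl2 calls are scaled to library size, while the Il7r ratios are to Cd3e. A link between the 2 genes was not tested. Tob1, a factor of T cell quiescence, and Igfbp4 were also higher in rPS against NT (1.05 ± 0.28 and 2.32 ± 0.77), and without the T-cell-poor libraries they stood at 1.11 ± 0.40 and 1.24 ± 0.37 and neither was called (edgeR adjusted p = 0.121 and 0.069).

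Of 26 trafficking genes, 3 were called higher and 6 lower in rPS against NT, 2 and 3 in PS, and 0 and 1 in R, where 21.5%, 4.97% and 0.665% of all genes were called. Rasgrp2, which activates the integrin switch Rap1, rose in rPS by 0.62 ± 0.13 and in PS by 0.61 ± 0.14, and without the T-cell-poor libraries it stood at 0.46 ± 0.16 and 0.45 ± 0.17 and was not called (edgeR adjusted p = 0.113 and 0.245). The chemokine receptor Ccr2 had a log2 change of -3.14 in rPS (edgeR adjusted p = 0.0212). Ccr2 is abundant on monocytes, whose marker sum was highest in the T-cell-poor libraries, 4 of them NT. Without these libraries Ccr2 stood at -1.01 ± 0.40 and was not called (edgeR adjusted p = 0.151). The part of monocytes in the Ccr2 value was not tested.

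Among effector and memory genes, 0 were called higher and 10 of 23 lower in rPS against NT, 6 in PS and 3 in R, where 21.5%, 4.97% and 0.665% of all genes were called in either direction. Gzmb, a cytotoxic granule protease, changed by -2.55 on the log2 scale in rPS, from 11.5 ± 4.92 CPM (SD, n = 7) to 1.99 ± 0.398 CPM (n = 5; edgeR adjusted p = 0.00061). Ly6c2, a surface protein of memory T cells and monocytes, changed by -1.76. Without the T-cell-poor libraries 7 of the 23 were called lower in rPS, beside 3.19% of all genes, and 0 in PS and R, with Gzmb at -2.22 ± 0.33 and Ly6c2 at -1.38 ± 0.31. In those libraries the sum of 8 natural killer cell markers was also lower in rPS, 26.4 to 58.7 CPM, than in NT, 92.1 to 196 CPM, and its part in the Gzmb change was not tested. In RO against NT, scaled to library size, edgeR called 0 genes of the 5 lists with all 27 libraries. On that scale 0, 0, 1, 4 and 7 of the FOXO regulators, further targets, naive, trafficking and effector genes had an unadjusted p under 0.05. On the same scale it also called 0 in the 6 comparisons among treated groups, where at most 7 genes of a list had such a p, the effector genes in rPS against RO. Relative to Cd3e 0 were called in these 6 as well, but more genes had such a p. In R against PS it was 17 of 17 FOXO regulators, beside 10507 of all 17131 genes.

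Relative to Cd3e the lists moved with the general shift in PS and rPS against NT. In PS 17 of 17 FOXO regulators, 14 of 18 further targets, 6 of 20 naive genes, 20 of 26 trafficking genes and 21 of 23 effector genes were called lower, beside the 75.3% of all genes given above. In rPS the counts were 8, 3, 2, 16 and 20, beside 46.5%. Igfbp4 was the only list gene called higher there, by 2.07 ± 0.66 (edgeR adjusted p = 0.0426). Without the T-cell-poor libraries none of the 5 lists had a called gene on this scale in these 2 comparisons.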

How the data were processed

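The deposited files hold expected counts per gene, 1 file per mouse, as estimated by the authors and not scaled. Per the submitters' processing notes, Trimmomatic 0.39, STAR 2.7.5a, Cufflinks 2.1.1, Cuffdiff and build GRCm39 were used. No header or label names the counting tool, its annotation or its use of strand. Counts were rounded to whole numbers. Symbols came from a table of Ensembl identifiers, which matched 52082 of 55413, and chromosomes from GENCODE's mouse annotation of GRCm38. A count of 0 allows up to 3 counts, or 0.191 to 0.7 CPM, for counting error only. The lowest chi-square per gene between 2 libraries of a group was 3.07, so none was a repeat.

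All 10 pairs of the 5 groups were compared with edgeR 4.0.16 (quasi-likelihood, robust, TMM scaling, filterByExpr by group) in R 4.3.3, in 1 fit of 27 libraries (RO replicate 7 was left out as incomplete), with Benjamini-Hochberg adjustment over all genes tested. A second fit replaced the library size with the Cd3e count. Genes called have adjusted p under 0.05. Alternatives used DESeq2 1.42.0, limma 3.58.1 (voom with quality weights), other scalings, filters, references and libraries. T-cell-poor means Cd3e under 50 CPM and Lyz2 above 1000 CPM. Nothing states that libraries of a group were prepared apart beyond their replicate numbers, so p-values measure the spread between these samples. The tests were checked on simulated data in which all libraries shared 1 cell make-up. That check does not cover libraries that differ in T cell content, as these do.

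The 8 genes and all lists were chosen with earlier results of these data known. Named genes are the 8, up to 3 called genes of each list per comparison by smallest p, and the 3 genes most like each of the 8 (log2 CPM, prior count 2, mean of at least 5 CPM). List genes called only without the T-cell-poor libraries were named after their values were seen. Some genes that this rule names are not reported here. The fit reported did not pair the samples by replicate number.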

Additional observations from a re-analysis of the deposited data

Results flagged for a closer look

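Of 80 sets of values tested (a gene in a group, as CPM or as a ratio to Cd3e), 18 held a library far from the others of its group by Dixon's criterion, where chance gives about 1 in 20. Most belong to the T-cell-poor libraries. In R replicate 3 Foxo1 was 101 CPM against 364 to 418 CPM in the other R libraries, S1pr1 50.8, Ccr7 18.3, Lef1 11.2 and Satb1 129 CPM, all below the rest. The ratios to Cd3e in that library were 10.6 for Foxo1, 24.2 for Klf2, 5.31 for S1pr1, 1.91 for Ccr7 and 13.4 for Satb1, all above the rest. In RO replicate 3 Foxo1 was 135 CPM, S1pr1 95.7 CPM and Ccr7 39.7 CPM, below the rest, and the ratios of Foxo1 (2.89) and Klf2 (5.69) were above it.

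Another 3 came from libraries that were not T-cell-poor. Klf2 in rPS replicate 4 had a ratio to Cd3e of 9.33 against 0.862 to 3.08 in the other rPS libraries. Ccr7 in PS replicate 4 was 290.0 CPM against 194 to 198 CPM. Lef1 in rPS replicate 2 had a ratio of 1.61 against 2.04 to 2.21.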

How the results depend on the processing

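The fit reported called 0 of the 8 genes in every comparison on both scales, and that count stayed at 0 with DESeq2's size factors, no low-count filter, only the groups compared, other reference genes, covariates from other cells' markers, all 28 libraries and the T-cell-poor libraries left out. Scaled to library size, limma voom with quality weights called 8 in PS, 8 in R, 8 in RO and 7 in rPS against NT. It called 54.8%, 41.3%, 47.2% and 35.5% of all genes there. DESeq2 called 2 in rPS against NT, beside 27.3% of all genes. Leaving out NT replicate 5 as well as the T-cell-poor libraries, which was chosen after seeing the data and leaves 2 NT libraries, gave 1 in R and 2 in rPS, beside 3.58% and 14.7% of all genes. Leaving out 1 library at a time gave 0 to 1 in PS (1 without NT replicate 6) and 0 to 3 in rPS (3 when NT replicate 6 was dropped, 2 for NT replicate 2 and 2 for R replicate 3). For fits without 1 library, on this scale and relative to Cd3e, the share of all genes called is not reported here. Such counts are thus not results about the 8 genes. Relative to Cd3e, voom called 6 in PS, 6 in R, 6 in RO and 5 in rPS against NT, beside 92.6%, 92.5%, 93% and 91.4% of all genes. Of these, 1, 2, 1 and 2 were higher and 5, 4, 5 and 3 lower. It called 1 in rPS against PS, 1 in rPS against RO, 1 in R against RO and 2 in R against PS, all higher. The shares of all genes there were 6.35%, 0.397%, 2.15% and 16%. Leaving out NT replicate 5 as well gave 1 in PS, 4 in R, 1 in RO, 6 in rPS and 1 in rPS against PS, beside 18%, 65.4%, 29.8%, 66.6% and 0.253% of all genes. In the last of these Il7r was the gene called, at 1.47 ± 0.24 (edgeR adjusted p = 0.00769). Leaving out 1 library gave 0 to 2 in each of PS, R, RO and rPS against NT, where NT replicates 2 and 6 and R replicate 3 were the libraries whose absence gave calls. The cause of these differences was not tested.

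With the alternatives, 141 of 3040 values scaled to library size and 115 of 2880 relative to Cd3e took the sign opposite to the fit reported. Leaving out the T-cell-poor libraries turned 24 and 17 of 80. In 14 cases the value that turned was called in the alternative, though not in the fit reported. With NT replicate 5 also left out and scaled to library size, these were Tcf7 in R (-1.23), and S1pr1 (-0.68) and Tcf7 (-1.01) in rPS, against NT. Relative to Cd3e they were Satb1 in PS (0.73), Foxo1 (0.85), S1pr1 (0.53), Ccr7 (0.57) and Satb1 (0.81) in R, Satb1 in RO (0.68), and Foxo1 (1.02), Klf2 (1.54), Ccr7 (0.6) and Satb1 (1.09) in rPS. With voom relative to Cd3e it was Klf2 in R (-1.47). The cause was not tested.

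The fit reported did not pair the samples by replicate number. Over 38 same-numbered pairs the correlation of deviations from the group mean ran from -0.36 to 0.76 with a median of 0.04. It was above 0.1 in 14 of them, and pairs with other numbers had a median of -0.01. Whether libraries of the same number were prepared together was not tested. With the replicate block 0 of the 8 genes were called in each comparison, and the counts of all genes called fell from 851 to 3 in PS, from 114 to 37 in R and from 3688 to 1811 in rPS against NT. Putting RO replicate 7 back gave 5, 50 and 2020, and leaving out the T-cell-poor libraries gave 2, 41 and 542. Relative to Cd3e the rPS count of 7959 became 342 with the block, 236 with RO replicate 7 and 11 without the T-cell-poor libraries.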
